A study of Danio rerio with 697 samples.

Results

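The genes described here encode parts of the dense-core secretory granule, the enzymes that turn prohormones into hormones, and a Ca-binding protein of the cytosol (*scgn*). They are *scg3*, *scg5*, *scg2b*, *pcsk1*, *pcsk2*, *cpe* and *scgn*, 7 symbols that were looked up by name in the annotation, ignoring case. Since 2 gene IDs carry the symbol *scg5*, the symbols gave 8 of the 32520 gene rows of the count table.

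Single cells of zebrafish larvae were collected at 5 days post fertilization (dpf), 1 per well, and their RNA was read with Smart-seq2, which amplifies whole polyadenylated transcripts. All larvae carried *Tg(ins:Kaede)*, in which the *insulin* promoter drives the fluorescent protein Kaede, and all were treated with csn (capsaicin), so that no untreated larvae were included. In the control group (Ctrl), *Tg(ins:Kaede)* larvae received csn for 48 h from 3 to 5 dpf. Larvae of the 24-h group (CSN24) also carried *Tg(ins:TRPV)*, a rat csn-gated cation channel under the same promoter, and received csn for 24 h, from 4 to 5 dpf by the labels. The study's text can be read as another start of this treatment, in which case CSN24 larvae would also differ in age. The 48-h group had the same genotype as the 24-h group and received csn from 3 to 5 dpf. Its wells carry 2 set numbers (CSN48-1 and CSN48-2), and the sources used here do not say what the sets are. The dissected islet regions of 20 larvae were pooled per group, and Kaede-positive cells with the viability dye calcein were sorted. Plate 1 held the Ctrl cells, plate 2 the CSN24 cells and plate 3 both CSN48 sets, and treatment and plate cannot be told apart. Each group is 1 sample (n = 1). Cells are not replicates, so no test was made and no p-value is given, and a 2-fold difference in pooled level served as the limit for calling a gene higher or lower.

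Endocrine cells store peptide hormones in dense-core granules. Granins such as the secretogranins aggregate with the prohormone and help to sort it into the budding granule. Inside the granule, the prohormone convertases encoded by *pcsk1* and *pcsk2* cut the precursor at pairs of basic residues, and the carboxypeptidase encoded by *cpe* trims the residues that remain. Secretagogin, the product of *scgn*, is a Ca-binding protein of islet and neuroendocrine cells that acts in the cytosol.

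Of the 693 wells with a group, 650 had at least 200 detected genes and at most 40% of their counts on 13 mitochondrial genes that code for proteins. Of these, 26.3% were Ctrl, 23.1% CSN24, 19.4% CSN48-1 and 31.2% CSN48-2 wells, with between 1486 and 1084018 counts on genes. More than 1000 *ins* counts were present in 540 wells, called ins-high (96.5% of the Ctrl, 90.7% of the CSN24, 55.6% of the CSN48-1 and 83.3% of the CSN48-2 wells). The other 110 wells are called ins-low (6 Ctrl, 14 CSN24, 56 CSN48-1 and 34 CSN48-2). The limit fell in a gap, with 934 *ins* counts in the highest ins-low well and 1152 in the lowest ins-high well. The 3 wells just below it had 70, 9 and 20 *scg3* reads of 377592, 8051 and 10954 counts, and the 3 just above had 68, 1958 and 10 of 11807, 366364 and 37568 counts, so that most wells next to the limit were shallow. As the limit was set on *ins*, the *ins* levels of these wells are a description. Levels are given as counts per 1000000 counts on genes (CPM), for a single well or pooled over the wells of a group. Intervals are at the 95% level (Clopper-Pearson for shares). Where 0 wells were found, the share that 3 wells would give is named as the limit that such a count allows. The intervals for shares cover the counting of wells and not the spread between samples, as each group is 1 sample. Intervals for reads may be too narrow, because PCR copies of a molecule are counted as separate reads.

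In the ins-high wells, *scg3* had the highest level of the 8 rows. Pooled CPM was divided by the summed exon length in kb to compare genes. *scg3* then had 1992 CPM per kb, followed by *scgn* with 640 and the *scg5* row on chromosome 20 with 335 CPM per kb. *cpe* had 131.1, the *scg5* row on chromosome 19 had 84.5, *scg2b* had 66.2 and *pcsk2* had 33.9 CPM per kb. *pcsk1* was the lowest with 5.51 CPM per kb. *ins*, on the same scale, had 251273 CPM per kb. No error can be given for this order, since each gene has 1 pooled value over all groups, and *scg2b* and *pcsk2* each rest on few wells, as described below.

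The members were measured very unevenly. At least 1 read was found in all 650 kept wells for *scg3*, in 88.8% for the *scg5* row on chromosome 20, in 85.5% for *scgn* and in 78.9% for *cpe*. The *scg5* row on chromosome 19 had a read in 61.7% of the wells, *scg2b* in 29.4% and *pcsk2* in 16.2%. Only *pcsk1*, with a read in 4.62% of the wells, fell under the 10% limit set for a gene that is barely measured. This limit was applied to wells at their full depth. With 538 ins-high wells thinned to 50000 counts, *pcsk2* kept a read in 5.95% (4.10 to 8.29%) and *scg2b* in 9.85% (7.47 to 12.7%). A read alone separated the kinds of well poorly. The 30 ins-low wells with iridophore genes, which are genes of a pigment cell type, also had a read on *scg3* in 100% of wells and on *scgn* in 70% of wells. Whether these wells hold pigment cells, and whether such cells lack the members, was not tested. When each well was thinned to 2000 counts, 62.8% of the ins-high wells (58.5 to 66.9%) and 6.67% of the iridophore-gene wells (0.818 to 22.1%) kept a read on *scg3*. For *scgn*, the thinned shares were 30.7% of the ins-high wells (26.9 to 34.8%) and 0 of 30 iridophore-gene wells, a count that allows a share of up to 10%.

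A level of 100 CPM separated low from high wells better than a read did. It was chosen after the values were seen, and no iridophore-gene well reached it for any member. For most members the wells fell into a low and a high population. For *cpe*, 21.3% of the 540 ins-high wells were at or above 100 CPM, 13 lay between 30 and 100 CPM and 5 between 100 and 300 CPM. For *scgn*, 170 wells were at or above 100 CPM, with 9 wells between 30 and 100 CPM and 5 between 100 and 300 CPM. The *scg5* row on chromosome 20 reached 100 CPM in 269 wells, with 12 and 19 wells in these ranges. *scg3* had 361 wells at or above 100 CPM, but 54 wells lay between 30 and 100 CPM, so its lower population came close to the limit. The *scg5* row on chromosome 19 had no such gap, with 39.4% of the ins-high wells at or above 100 CPM and 16.3% at or above 300 CPM.

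**Figure D1:**
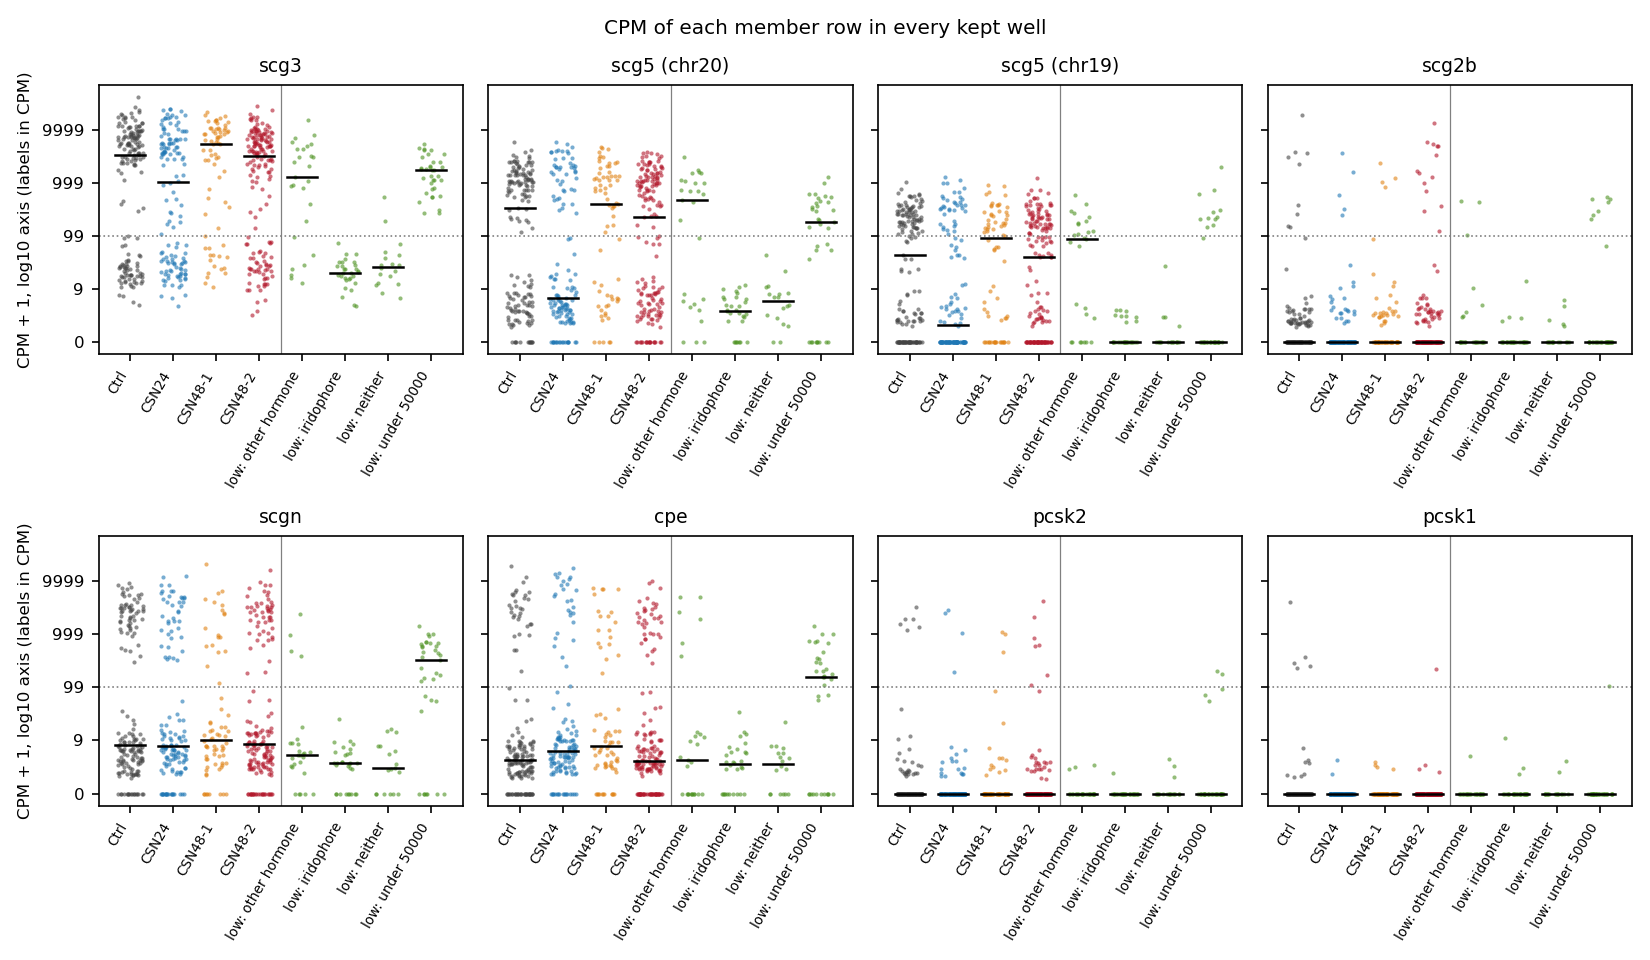
CPM of each of the 8 member rows in every kept well (points, log axis of CPM + 1), with ins-high wells by group on the left of each panel and 4 kinds of ins-low well on the right; black bars are medians and the dotted line marks 100 CPM. The wells of *cpe*, *scgn* and the *scg5* row on chromosome 20 form a low and a high band, and *pcsk1* reached 100 CPM in 7 of 650 wells.

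*scg3* (ENSDARG00000086288, GRCz11 chromosome 18 from 39434589 to 39473055, minus strand, 2367 exon bases) encodes secretogranin III, a granin that binds chromogranin A and the granule membrane in mammals. In the Ctrl ins-high wells its level ran from 3.97 to 41558 CPM with a median of 3328 CPM. In the CSN24 ins-high wells the lowest value was 3.87, the median 1022 and the highest 24727 CPM. In CSN48-1 these values were 9.90, 5308 and 21847 CPM, and in CSN48-2 they were 2.27, 3215 and 28124 CPM. The ranges of the 4 groups overlapped almost completely, and the median was lowest in CSN24 and highest in CSN48-1. The share of ins-high wells at 100 CPM was 64.8% in Ctrl (57.04 to 72.1%), 60.3% in CSN24 (51.6 to 68.6%), 77.1% in CSN48-1 (65.6 to 86.3%) and 69.8% in CSN48-2 (62.3 to 76.6%). The intervals of all 4 groups overlap.

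*scg5* encodes the chaperone 7B2, which in mammals is needed for the convertase of *pcsk2* to become active. A first row (ENSDARG00000032126) lies on chromosome 20 from 29471151 to 29475172 and the other (ENSDARG00000077045) on chromosome 19 from 47523730 to 47527192, both on the minus strand, with 2290 and 1628 exon bases. The row on chromosome 20 had medians of 332 CPM in Ctrl, 5.81 CPM in CSN24, 405 CPM in CSN48-1 and 227 CPM in CSN48-2 ins-high wells. Each group held wells at 0, and the highest wells had 5842, 5797, 4778 and 3816 CPM in the same order. The CSN24 median lay in the low population, as most of its wells did. At 100 CPM, the share was 56.4% in Ctrl (48.4 to 64.1%), 33.1% in CSN24 (25.3 to 41.7%), 62.9% in CSN48-1 (50.5 to 74.1%) and 51.5% in CSN48-2 (43.7 to 59.23%). The share was lowest in CSN24, below the intervals of the other groups, which cover the counting of wells and not the spread between samples of a condition. In the high wells alone, the median was 1825 CPM in CSN24 against 1149 CPM in Ctrl, and the pooled levels were 763 CPM in both groups. CSN24 thus had fewer high wells, which were higher on average, at the same pooled level.

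The lower share of high *scg5* wells in CSN24 went together with fewer detected genes. The median ins-high well had 1046 detected genes in CSN24, against 1232 in Ctrl, 1418 in CSN48-1 and 1204 in CSN48-2. Across all 538 ins-high wells with at least 50000 counts, the share with the chromosome 20 row at 100 CPM was 36.3% in wells with 383 to 1024 detected genes and 63.0% in wells with 1377 to 3942 detected genes. Among wells with 1000 to 1400 detected genes, it was 52.6% in Ctrl (61 wells, 43.1 to 61.9%) and 41.9% in CSN24 (26 of 62 wells, 29.5 to 55.2%), and the intervals overlapped. The difference between CSN24 and Ctrl was −23.3 percentage points over all ins-high wells and −10.7 points within this range. Of 441 genes at 100 CPM in at least 10% of the wells of either group, 4.08% had a difference as low or lower, and the median gene differed by −5.98 points. The part of the number of detected genes in the *scg5* difference was not tested.

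**Figure D2:**
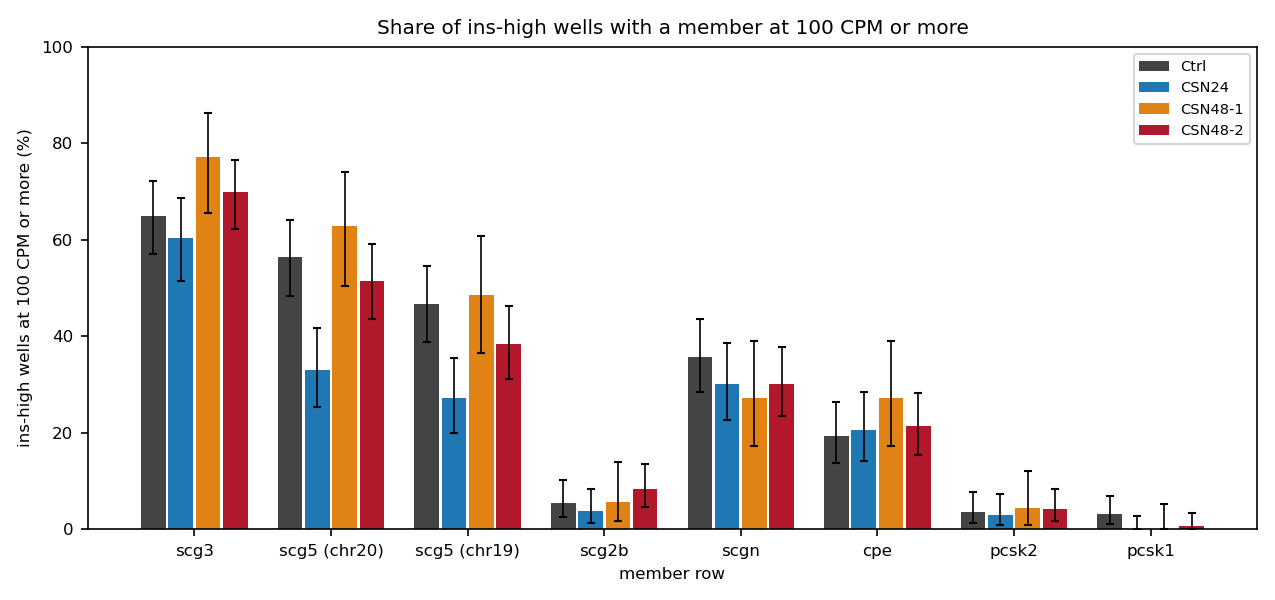
Share of ins-high wells in which each member row was at 100 CPM or more (bars, percent, from 0), by group, with exact 95% intervals for counting error. The *scg5* rows were at 33.1% and 27.2% in CSN24 against 56.4% and 46.7% in Ctrl, while *scg3*, *scgn* and *cpe* had overlapping intervals in all groups.

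The pair of *scg5* rows moved together well by well. In the same 538 wells, their Pearson correlation on log values was 0.96, whereas the 27 other pairs of member rows lay between −0.05 and 0.16. This is a description across wells that share plates and depth. All ins-high wells with the chromosome 19 row at 100 CPM (39.4% of the 540) also had the chromosome 20 row at 100 CPM. In the 271 wells where the chromosome 20 row was lower, the chromosome 19 row never passed 38.01 CPM. In the 269 wells at or above the level, a median of 17.1 reads fell on the chromosome 19 row for every 100 on the chromosome 20 row, with quartiles of 14.4 and 20.0. The rows carry 1 symbol, and how reads that match both were counted was not tested. The level of the chromosome 19 row is therefore uncertain, and the rows are not independent evidence of each other.

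**Figure D3:**
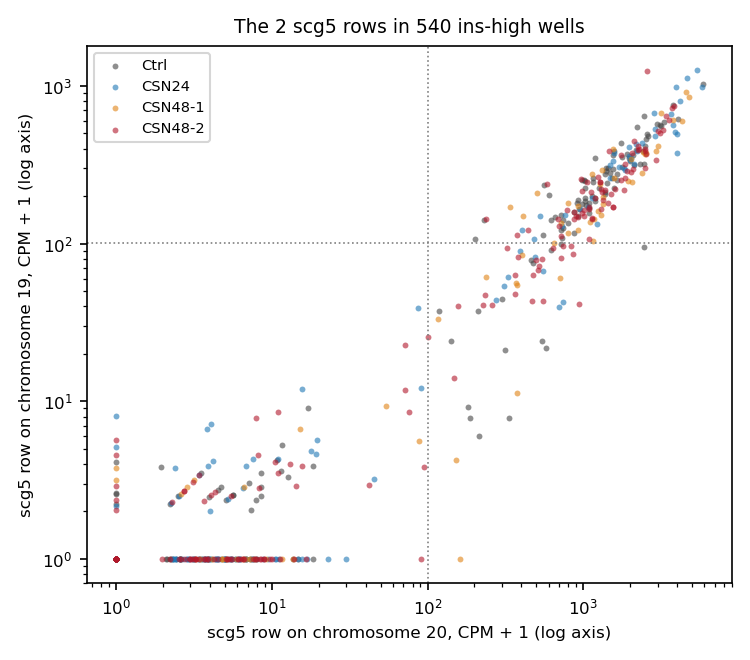
CPM + 1 of the *scg5* row on chromosome 19 (vertical, log axis) against that on chromosome 20 (horizontal, log axis) in 540 ins-high wells coloured by group; dotted lines mark 100 CPM. No well lies above the level for chromosome 19 and below it for chromosome 20, and 269 wells lie above it for chromosome 20.

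*scg2b* (ENSDARG00000038574, chromosome 2 from 47581997 to 47585197, plus strand, 2701 exon bases) encodes secretogranin II, the precursor of secretoneurin. Its median was 0 CPM in all 4 groups of ins-high wells. The highest wells had 18464 CPM in Ctrl, 3572 CPM in CSN24, 2366 CPM in CSN48-1 and 13467 CPM in CSN48-2. Only 9, 5, 4 and 14 ins-high wells, in the same order, reached 100 CPM. A single Ctrl well held 31.1% of all *scg2b* reads of the kept wells and the 5 highest wells held 61.97%. Pooled levels of *scg2b* therefore describe a few wells.

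*scgn* (ENSDARG00000058732, chromosome 16 from 6356460 to 6377672, minus strand, 1605 exon bases) ran from 0 to 9063 CPM in Ctrl, 12756 CPM in CSN24, 21412 CPM in CSN48-1 and 15861 CPM in CSN48-2 ins-high wells. The medians were low in every group, at 7.38, 6.77, 9.40 and 7.48 CPM, since most wells belonged to the low population. High wells made up 35.8% in Ctrl (28.5 to 43.6%), 30.1% in CSN24 (22.6 to 38.6%), 27.1% in CSN48-1 (17.2 to 39.1%) and 30.2% in CSN48-2 (23.4 to 37.7%). All 4 intervals overlap. The median of the high wells was 2729 CPM in Ctrl, 2628 CPM in CSN24 and 2612 CPM in CSN48-2, and 1305 CPM over the 19 high wells of CSN48-1.

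Among the enzymes, *cpe* (ENSDARG00000055874, chromosome 1 from 20839482 to 20911297, minus strand, 6373 exon bases) was the one measured in many wells. Ins-high wells ran from 0 to 19147 CPM in Ctrl, 17439 CPM in CSN24, 7457 CPM in CSN48-1 and 10203 CPM in CSN48-2. The medians were 3.37, 5.43, 6.87 and 3.15 CPM. At 100 CPM or more were 19.4% of the wells in Ctrl (13.7 to 26.3%), 20.6% in CSN24 (14.1 to 28.4%), 27.1% in CSN48-1 (17.2 to 39.1%) and 21.3% in CSN48-2 (15.4 to 28.3%). The intervals of all groups overlap. Their median level was 3014 CPM in Ctrl, 4291 CPM in CSN24, 1676 CPM in CSN48-1 and 1949 CPM in CSN48-2.

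The convertases were rarely measured. *pcsk2* (ENSDARG00000019451, chromosome 13 from 912123 to 977652, plus strand, 1941 exon bases) had a median of 0 CPM in every group and reached 100 CPM in 6 Ctrl, 4 CSN24, 3 CSN48-1 and 7 CSN48-2 ins-high wells. Its highest wells had 3259, 2819, 1082 and 4170 CPM in the same order, so that its reads came from a few high wells in each group. *pcsk1* (ENSDARG00000002600, chromosome 21 from 11684830 to 11722343, plus strand, 2516 exon bases) reached 100 CPM in 5 Ctrl wells and 1 CSN48-2 well among the ins-high wells. A single Ctrl well with 3974 CPM held 76.9% of its 4040 reads. In CSN24 and CSN48-1, 0 ins-high wells reached 100 CPM, with 3 and 4 reads in all, and a count of 0 allows shares of up to 2.21 and 4.29%. Neither convertase had a read in 25% of the wells on any side of a comparison, so neither entered the comparisons of pooled levels. That *pcsk1* and *pcsk2* are absent from a cell cannot be read from these counts.

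High levels of different members coincided only weakly, and the part of missed transcripts in this was not tested. Of 540 ins-high wells, 12.4% had 0 of the 7 symbols at 100 CPM (with the chromosome 20 row standing for *scg5*), 31.1% had 1, 29.8% had 2, 18.5% had 3, 6.85% had 4 and 1.30% had 5. No well had 6 or 7. *cpe* was high in 24.1% of the 361 wells with high *scg3* and in 15.6% of the other wells. *scg2b* was high in 13.9% of the wells with high *cpe* and in 3.76% of the other 425. *pcsk2* was high in 5.95% of the 269 wells with high *scg5* and in 1.48% of the other 271. *scg3* and *ins* correlated at r = 0.07, and *cpe* and *ins* at r = −0.03, over 538 wells. Among 400 genes with a read in at least 50% of these wells, those most like the members were *RPL26*, *RPS18* and *COX7C* for *scg3* (r = 0.19, 0.18 and 0.18). They were *SEC61G* and *RPRM* (r = 0.21 and 0.20) for the *scg5* row on chromosome 20 beside its partner, and *EDF1* and *RPRM* (r = 0.19 and 0.18) for the row on chromosome 19. For *scgn* they were *RPRM*, *RPS9* and *eef1a1l1* (r = 0.18, 0.17 and 0.16), and for *cpe* *ATP5F1C*, *calm3b* and *EEF1G* (r = 0.17, 0.16 and 0.15). These values are weak in counts as sparse as these. They were computed over wells that share plates and differ in detection, and the members' own values correlated with the number of detected genes at r = 0.12 for *scg3* and 0.18 for the *scg5* row on chromosome 20.

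The comparison of ins-low with ins-high wells asked whether the granule genes follow *ins*. Of the 110 ins-low wells, 33 had *ins* at 1% of counts or more, all of them with fewer than 50000 counts. The limit is a raw count, so these wells fell under it although *ins* held 1% or more of their counts. Why their libraries were shallow, and what these wells held, was not tested. All 6 member rows that could be compared were lower in the ins-low wells by more than 2-fold, while the other 2 rows (*pcsk1* and *pcsk2*) had too few wells with a read. *scg2b* passed this filter only through the ins-high wells, where it was high (a read in 30.7% of them, against 22.7% of the ins-low wells), so that its call was helped by the filter. Over the 1255 genes compared, 35.1% were lower by 2-fold or more and 52.2% differed in either direction. On the log2 scale with 1 CPM added, the pooled level of *scgn* differed by −4.24 (53.5 against 1027 CPM), *scg2b* by −3.53 (14.6 against 178.9 CPM) and *scg3* by −2.34 (933 against 4716 CPM). *cpe* differed by −1.99 (210 against 836 CPM) and the *scg5* rows by −1.85 and −1.82. The median was −2.16 over the 6 rows and −0.54 over all genes compared. The 6 rows include *scg2b*, and both *scg5* rows, which are not independent of each other. The wells overlapped widely for every member, with a highest ins-low well of 15461 CPM for *scg3*, 5026 CPM for *cpe* and 3011 CPM for the *scg5* row on chromosome 20. With only wells of at least 50000 counts, the count of rows past 2-fold was again 6 of 6, beside 50.9% of all genes in either direction. With an *ins* limit of 1% of gene counts it was 6 of 6 beside 42.7%. Without the CSN48-1 wells the count was 4 of 6 beside 54.4% of all genes in either direction, and the *scg5* rows then differed by −0.80 and −0.77. Without either 48-h set it was 3 of 6 (*scg3*, *scg2b* and *scgn*) beside 63.2% of all genes, so that the members' share was not above the background.

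The ins-low wells were not of 1 kind, and the granule genes differed greatly among the kinds. By markers and depth they were 27 wells with another islet hormone gene above 1% of counts, 30 wells with iridophore genes, 35 wells with fewer than 50000 counts and 18 wells with none of these features. Iridophore-gene wells and shallow wells came mostly from the 48-h sets (24 CSN48-1 and 6 CSN48-2 wells, and 17 CSN48-1, 17 CSN48-2 and 1 CSN24 well). The hormone wells came from all groups, with 3 Ctrl, 10 CSN24, 5 CSN48-1 and 9 CSN48-2 wells. In the hormone wells, summed delta-cell genes took between 10.9 and 84.7% of counts, with a median of 56.4%, and somatostatin genes led in 25 of the 27 wells and glucagon genes in 2. Their *ins* level, with a median of 650 CPM, was near that of the iridophore-gene wells (median 615 CPM).

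In the hormone wells, the pooled levels of *scg3*, *scg5* and *cpe* were nearer to those of the ins-high wells than the other 4 symbols, which were at 24.1% or less. This split is not firm, since *cpe* was high in 6 of 27 wells, *scgn* in 4 and *scg2b* in 3, and the convertases had very few reads. *scg3* ran from 11.9 to 15461 CPM with a median of 1307 CPM and was at 100 CPM in 20 of 27 wells (74.1%, 53.7 to 88.9%), against 66.9% of the ins-high wells (62.7 to 70.8%). The *scg5* row on chromosome 20 had a median of 463 CPM and was high in 16 of 27 wells (59.3%, 38.8 to 77.6%), against 49.8% (45.5 to 54.1%). *cpe* was high in 6 of 27 wells (22.2%, 8.62 to 42.3%), against 21.3% (17.9 to 25.0%). None of these 3 shares differed from that of the ins-high wells beyond its interval. The pooled levels of these 3 genes were 60.3%, 85.5% and 78.1% of the ins-high level. That of *ins* was 0.559%, a low value set by the *ins* limit that chose the wells. With only the hormone wells on the ins-low side, 2 of 6 rows stayed past 2-fold, against 58.5% of all genes compared, and the log2 differences were −0.73 for *scg3*, −0.23 for both *scg5* rows and −0.36 for *cpe*.

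*scgn* and *scg2b* were the rows that stayed past 2-fold, and both rest on few hormone wells. *scgn* had a median of 4.31 CPM and was at 100 CPM in 4 of 27 wells (14.8%, 4.19 to 33.7%), all from the 48-h sets, against 31.5% of ins-high wells (27.6 to 35.6%), and the intervals overlap. Its pooled level was 14.9% of that in ins-high wells, a log2 difference of −2.74, and 1 of the wells led by glucagon genes held 52.9% of its reads there. In the 25 wells led by somatostatin genes, the pooled level was 77.6 CPM. In ins-low wells led by somatostatin genes, *scgn* was high in 3 of 25 (12%, 2.55 to 31.2%). In ins-high wells led by somatostatin genes, it was high in 37 of 86 (43.02%, 32.4 to 54.2%). These intervals do not overlap, but they count wells, which are not replicates. The groups were also mixed differently, with 3 Ctrl, 9 CSN24, 5 CSN48-1 and 8 CSN48-2 wells against 10, 21, 12 and 43. Doublets were not removed, and whether *scgn* differs between these wells was not tested. *scg2b* was high in 3 of 27 hormone wells and differed by −2.03. *pcsk2* and *pcsk1* had 3 and 1 reads in all 27 wells. High *pcsk2* was found in 0 of 27, and this count allows up to 11.1%, so a share as low as the 3.70% of ins-high wells was not detectable with these wells.

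In the iridophore-gene wells, every member was low. *scg3* ran from 3.86 to 71.9 CPM with a median of 19.3 CPM, and 0 of 30 wells reached 100 CPM, a level that was chosen with these wells in view. The pooled levels of *scg3*, both *scg5* rows and *cpe* were 0.455, 0.468, 0.489 and 0.465% of those in ins-high wells. *ins* itself was at 0.536% and *scgn* at 0.327%. These ratios lay close to each other although the genes differ in level by orders of magnitude. The other members lay outside their range, on few reads. They were at 0.251% for *scg2b* (6 reads), 3.24% for *pcsk1* (6 reads) and 0.113% for *pcsk2* (1 read). The summed iridophore genes took a median of 8.36% of counts in these wells, and all 9 rows of that list had reads. The 18 wells with none of the features had 2 wells at 100 CPM for *scg3* and 0 for all other members, and pooled levels between 0.342 and 1.13% of the ins-high level for *cpe*, *scgn*, *scg2b*, *scg3* and the *scg5* rows. By other marker lists these 18 wells were mixed. Macrophage genes were above 1% of counts in 3 wells and beta-cell genes in 2. Acinar genes and epidermis genes were each above 1% in 1 well. What these wells held was not tested.

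In the shallow wells the median was 6394 counts on genes, and 61.2% of all counts fell on spike-in RNAs, against 0.172% in the median ins-high well. In the median shallow well a single read exceeds 100 CPM, so their shares at that level are not comparable. Their pooled levels were 28.03% of the ins-high level for *scg3*, 27.2% for *scgn*, 20.9% for the *scg5* row on chromosome 20, 21.4% for *cpe* and 31.8% for *ins*. Thinned to 2000 counts, 90.6% of 32 shallow wells (74.98 to 98.02%) kept a read on *scg3*, against 62.8% of the ins-high wells (58.5 to 66.9%). For *scgn* the shares were 56.2% (37.7 to 73.6%) and 30.7% (26.9 to 34.8%), and for *cpe* 43.8% (26.4 to 62.3%) and 20.4% (17.1 to 24.0%). These 3 genes thus kept a read in more of the shallow wells when gene counts were matched, although their pooled levels were lower there. The *scg5* rows went the other way, with 37.5 against 42.4% on chromosome 20 and 12.5 against 17.8% on chromosome 19. Thinning matches the number of gene counts, and not the depth of the libraries or their spike-in share. Of the 35 shallow wells, 25 also had another hormone gene above 1% of counts, and the part of this in the shares was not tested. The well labelled NC, which has no group, was alike in depth and spike-in share (3617 counts, 54.4% spike-in, 86812 CPM of *ins*). The 35 wells hold 421 reads on *scg3*, 89 on *scgn* and 57 on *cpe* in total.

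**Figure D4:**
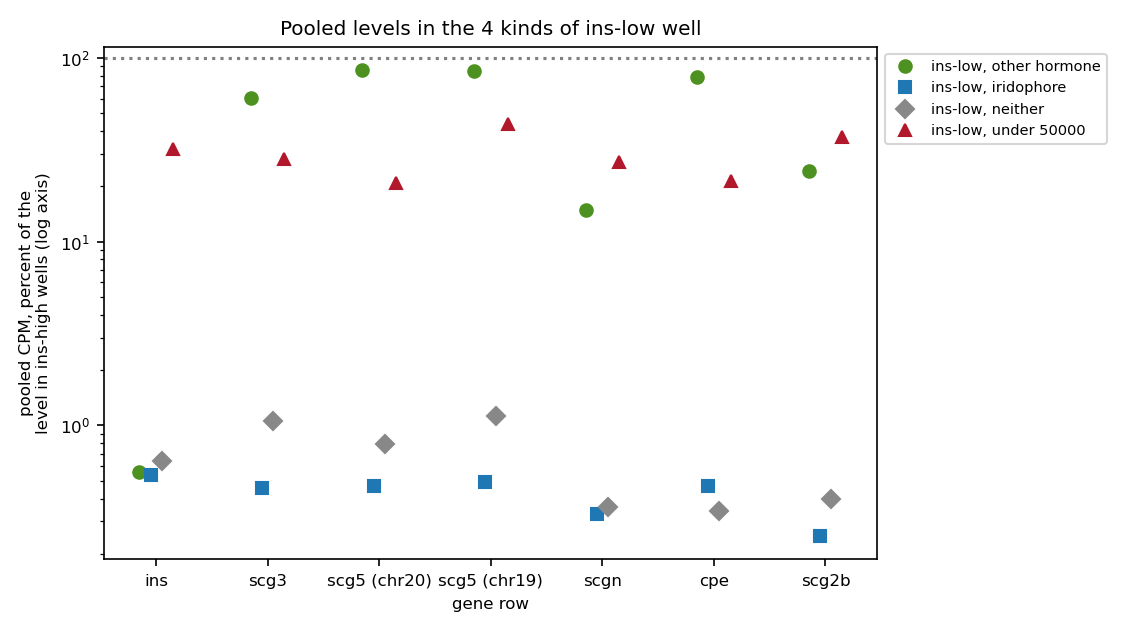
Pooled CPM of *ins* and 6 member rows in the 4 kinds of ins-low well, as percent of the pooled CPM in 540 ins-high wells (log axis; the dotted line marks 100%); the convertases are left out for lack of reads. Wells with other hormone genes, 25 of 27 led by somatostatin genes, have *scg3*, *scg5* and *cpe* at 60.3 to 85.5%. Their low *ins* level (0.559%) was set by the *ins* limit that chose these wells and is no contrast. Iridophore-gene wells have all shown genes between 0.251 and 0.536%.

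The groups were compared within the ins-high wells. The *ins* limit was applied to cells taken after treatment, and it kept unlike shares of the groups. These were 96.5% of the Ctrl, 90.7% of the CSN24, 55.6% of the CSN48-1 and 83.3% of the CSN48-2 wells. The values therefore describe ins-high wells. What csn did to all cells with the channel cannot be read from them. With pooled CPM of the ins-high wells at their full depth, *scg2b* was the only 1 of the 6 rows compared that differed by 2-fold in any of the 6 comparisons. In CSN24 against Ctrl, 1 of 6 rows was called (background 38.5% of 1125 genes, 21.8% lower). This was *scg2b*, which passed the filter only through Ctrl, where it was high (a read in 34.5% of the wells, against 19.9% in CSN24), as it did only through the 48-h wells when these were compared with CSN24. The log2 differences were −0.15 for *scg3*, −0.00 and −0.04 for the *scg5* rows, −0.10 for *scgn* and 0.36 for *cpe*, beside a median of 0.09 over all genes. *scg2b* differed by −2.36 (46.4 against 242 CPM), and by −0.95 without the Ctrl well with the most reads, which ends the call.

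In the 48-h wells, both sets together gave 0 of 6 rows past 2-fold against Ctrl (background 32.6% of 1247 genes). *scg3* differed by −0.03 (4766 against 4873 CPM), the *scg5* rows by 0.02 and −0.09, *scgn* by −0.19, *scg2b* by −0.26 and *cpe* by −0.46 (630 against 865 CPM). The sets did not run in parallel for all members. In CSN48-1, *scg3* was at 6237 CPM (log2 difference to Ctrl 0.36) and in CSN48-2 at 4200 CPM (−0.21), and *cpe* was at 879 CPM (0.02) and 534 CPM (−0.70). *scgn* was lower than in Ctrl in both, by −0.55 at 751 CPM and by −0.08 at 1041 CPM. With all kept wells, whatever their *ins* counts, *scgn* differed from Ctrl by −1.13 in CSN48-1 and by −0.14 in CSN48-2. The first of these is past 2-fold, beside 46.4% of all genes. CSN48-1 against Ctrl gave 1 of 6 rows (*scg2b*, −1.44, with a background of 46% in either direction and 21.7% lower) and CSN48-2 gave 0 of 6 (background 34.4%). Without the 1 Ctrl well, *scg2b* differed by −0.04 in CSN48-1, and it was higher by 1.43 in CSN48-2 and by 1.15 in both sets together. In these values only the Ctrl side lost its highest well. A CSN48-2 well with 6803 of the 19992 *scg2b* reads of the CSN48-2 ins-high wells stayed in. The difference without the highest wells of both sides was not computed.

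Directly compared, the sets differed past 2-fold for 1 of 6 rows (*scg2b*, −1.47, with a background of 39.7%, 20.3% higher and 19.4% lower), by 0.57 for *scg3* and by 0.72 for *cpe*. Past 2-fold, the 48-h wells differed from the 24-h wells for *scg2b* alone (2.11, 202.95 against 46.4 CPM, with a background of 30.3%, 18.7% higher), and *cpe* differed by −0.82 (630 against 1113 CPM). *cpe* did pass 2-fold without CSN48-1 (−1.06, background 32%) and with all kept wells (background 31.5%). It also did with wells thinned to 50000 counts (background 8.16%), where *scg2b* was below the filter. All these comparisons with Ctrl share the same control wells. *ins* pooled over the ins-high wells was 115646 CPM in Ctrl, 133610 CPM in CSN24, 131955 CPM in CSN48-1 and 115812 CPM in CSN48-2.

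Scaling to spike-in RNAs in place of gene counts moved all genes downwards in the treated groups. The median gene then differed from Ctrl by −0.91 in CSN24, −0.998 in CSN48-1 and −0.49 in CSN48-2. Relative to that shift, *scg3* differed little (−1.17, −0.92 and −0.76 on the spike-in scale), as did *scgn* in CSN24 (−1.12) and CSN48-2 (−0.62), while *scgn* in CSN48-1 was at −1.82 and *cpe* in CSN48-2 at −1.24. Since this scaling moves all genes of a group by about the same amount, the signs of small differences turned with it. These were *cpe* in CSN24 (−0.65), *scg3* (−0.92), both *scg5* rows (−1.003 and −1.18) and *cpe* (−1.25) in CSN48-1, *scg2b* in CSN48-2 (−0.52) and the *scg5* row on chromosome 20 in both sets together (−0.76), each against Ctrl. The same held between the sets for *scg3* (−0.16), the *scg5* rows (−0.37 and −0.47) and *cpe* (−0.01), beside a median of −0.54 over all genes, and between the 48-h and 24-h wells for the *scg5* row on chromosome 19 (0.18) and *scgn* (0.14), beside 0.28. These turns are those of the scaling and not particular to the members. Each plate holds 1 treatment, so RNA per cell and spike-in per plate cannot be told apart.

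**Figure D5:**
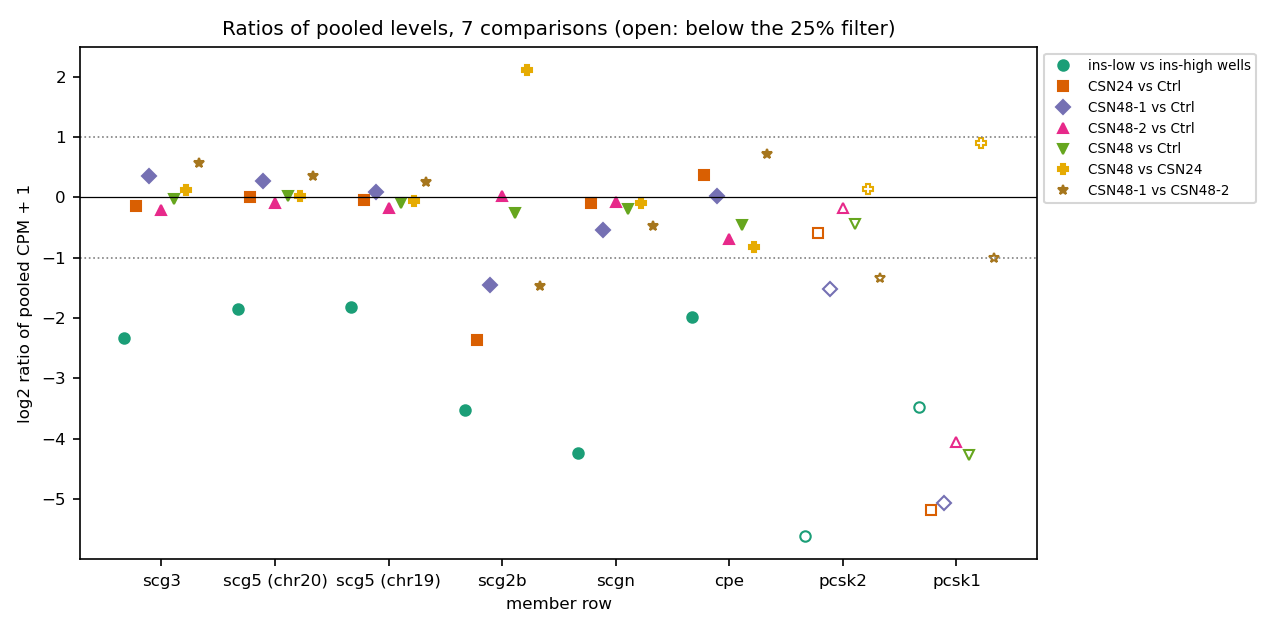
Log2 ratio of pooled CPM + 1 (vertical) for each member row in 7 comparisons, 1 symbol per comparison; dotted lines mark 2-fold and open symbols are rows with a read in under 25% of the wells of both sides. All 6 filled points of the ins-low comparison lie below −1, and among the filled points of the group comparisons only *scg2b* passes 2-fold; open points of *pcsk1* and *pcsk2* also lie past it, on few wells with reads.

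Further genes of the pathway were taken from 4 lists. Most of their rows had a read in fewer than 25% of the wells, so that 3 of 14 rows for prohormone processing, 4 of 10 for granins and granule cargo, 2 of 40 for the granule membrane and 4 of 30 for exocytosis machinery could be compared between ins-low and ins-high wells. Of these 13 rows, 8 were lower and 2 higher in the ins-low wells (76.9%, against 52.2% of all genes). The median differences of the lists, in this order, were 0.39, −1.73, −2.08 and −2.53. The lower ones included *chga*, the granin chromogranin A (−3.01, 35.1 against 289 CPM), and *NUCB2* (ENSDARG00000036291), the precursor of nesfatin (−1.91). *ptprna*, a granule membrane protein related to the islet autoantigen of mammals, differed by −3.17. *rims2b*, which encodes a scaffold of the exocytotic site, differed by −5.82 on 32 reads in the ins-low wells. Both *ptprna* and *rims2b* passed the filter only through the ins-high wells, where they were high. A read was found in 35.7 and 27.4% of those wells, against 21.8 and 18.2% of the ins-low wells. Their calls, which count among the 8, were thus helped by the filter. *pcsk1nl*, named for an inhibitor of the convertase, differed by −1.54, *ERO1B* by −1.54 and *rims2a* by −1.68. The higher rows were the lysosomal cathepsin gene *ctsla* (1.88) and *VAMP3* (2.51), a vesicle fusion protein found in many cell types.

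Between groups of ins-high wells, a few of these genes passed 2-fold. The second *NUCB2* row (ENSDARG00000036299) was higher than in Ctrl in CSN24 (1.87) and CSN48-1 (1.52), whereas the first differed by −0.85 and −0.15. In CSN48-2 the first row was lower (−1.09, 226.9 against 483.5 CPM) and the second differed by 0.59. *ERO1B*, an oxidase that helps proinsulin to fold in mammals, was higher in CSN24 (1.33) and lower in CSN48-2 (−1.30). *PAM*, which amidates peptide hormones, was lower in CSN24 (−1.43), as were *ctsla* (−1.18) and *VAMP3* (−5.95, 23 reads in CSN24 against 8614 in Ctrl). *ABCC8*, the sulfonylurea receptor, was higher in CSN48-2 (1.67) and in both 48-h sets together (1.43). *SNAP25*, a membrane fusion protein, was higher in CSN48-1 (1.41). The calls of *PAM*, *ctsla* and *VAMP3* in CSN24 and of *ERO1B* in CSN48-2 passed the filter only through Ctrl, where these genes were high. For *VAMP3*, a read was found in 26.1% of the Ctrl wells, against 9.56% in CSN24. *ABCC8* and *SNAP25* passed only through the 48-h wells, where they were high (*SNAP25* in CSN48-1 27.1%, against 20% in Ctrl). All these calls, which count in the shares below, were thus helped by the filter. *chga* differed by 0.33, 0.86 and 0.46 in CSN24, CSN48-1 and CSN48-2 and was not called. Over the 4 lists together, 6 of 13 rows compared were past 2-fold in CSN24 (46.2%, against 38.5% of all genes), 3 of 16 in CSN48-1 (18.8%, against 46%), 3 of 15 in CSN48-2 (20%, against 34.4%) and 1 of 15 in both sets together (6.67%, against 32.6%). With so few rows measured, nothing particular to the lists can be read from these shares.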

How the data were processed

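The deposited values are raw counts of reads per gene that the authors made from the reads of each well. They used bcl2fastq 2.19.1 for demultiplexing, trimmed with cutadapt, aligned with GSNAP (2019-06-10) to GRCz11 and counted with featureCounts 2.0.1 on Ensembl release 95. Whether counting used strand is not given in the sources used here. The table also holds 92 spike-in RNAs, which were left out of the totals. No per-sample column was left unused. The 4 wells labelled NC or RNA have no group and entered no comparison.

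CPM was computed per well and from summed counts per group with Python 3.11.15, numpy 2.4.6, pandas 2.3.3 and scipy 1.17.1, and plots were drawn with matplotlib 3.10.9. A gene entered a comparison if it had a read in 25% of the wells of either side. Log2 ratios used pooled CPM with 1 CPM added, and 2-fold was the limit for a call. As each group is 1 sample, count models across samples could not be fitted. The code was tested on simulated data. Kept ins-high wells had a median of 525422 counts. The width of the intervals for shares depends on the number of wells and not on this depth. Doublets were not removed.

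Named genes were all member rows and, per list and comparison, the 3 rows with the greatest difference in each direction among those that passed the filter, and for each member with a read in 50% of the ins-high wells the 3 genes with the most similar levels. The members and the gene lists were chosen with earlier results of these data known. Likewise, the 100-CPM level, the kinds of ins-low well by depth and the matching of list symbols without a paralog suffix (107 symbols, 68 exact, 32 without suffix, 7 unmatched) were chosen after values were seen. Alternatives covered the scaling, filters, depth, pseudocount, *ins* limit and left-out groups and wells. A gene that the rule for named genes would name is not reported here.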

Additional observations from a re-analysis of the deposited data

Results flagged for a closer look

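In the ins-high wells, *scg3*, both *scg5* rows, *scg2b* and *cpe* had ratios to Ctrl of opposite sign in the 48-h sets. The difference was not tested, since each set is 1 sample. How many of all genes do so was not counted, and the *scg5* rows are not independent evidence of each other. The log2 ratio to Ctrl in CSN48-1 minus that in CSN48-2 was 0.57 for *scg3* (0.36 and −0.21), 0.36 for the *scg5* row on chromosome 20 (0.27 and −0.09), 0.26 for the *scg5* row on chromosome 19 (0.09 and −0.17), −1.47 for *scg2b* (−1.44 and 0.03) and 0.72 for *cpe* (0.02 and −0.70). Most of these ratios are small beside the 2-fold limit, and *scg2b* in CSN48-2 and *cpe* in CSN48-1 lay almost at Ctrl. With spike-in scaling, each of these rows was below Ctrl in both sets. In CSN48-1 and CSN48-2, *scg3* was then at −0.92 and −0.76, *scg2b* at −2.71 and −0.52 and *cpe* at −1.25 and −1.24. The *scg5* row on chromosome 20 was at −1.003 and −0.63, and that on chromosome 19 at −1.18 and −0.71.

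The well labelled NC on plate 1, outside all comparisons, held 2765 CPM of *scgn*, above the pooled 1099 CPM of the Ctrl ins-high wells. This rests on 10 reads of 3617 counts (exact Poisson interval 1326 to 5084 CPM).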

How the results depend on the processing

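No paired analysis was possible because each group is 1 sample and well numbers do not pair wells across plates. Counts of member rows past 2-fold or detected stayed within 1.5 times the reported count under 110 alternatives and did not under 28. Of 1105 values of single members under an alternative, 52 gained or lost a call or moved past their interval. A call could change through the 2-fold limit or through the filter on wells with a read. Of the values, 0 turned from a call in one direction to the other. The share of all genes past 2-fold in either direction, which moved too, is given in parentheses where it was computed. For ins-low against ins-high wells the count went from 6 (52.2%) to 3 without the 48-h sets (63.2%) and to 2 with only the other-hormone wells (58.5%), both chosen after seeing the data. For CSN24 against Ctrl it went from 1 (38.5%) to 5 with spike-in scaling (52.5%), 0 with wells thinned to 50000 counts (21.1%), 2 with every gene of 10 reads or more (55.7%) and 0 without the well with the most reads on the member. For CSN48-1 against Ctrl it went from 1 (46%) to 5 (57.1%), 0 (35.8%), 3 (59.6%) and 0 under these settings, to 2 with all kept wells (46.4%) and to 2 with a 10% filter (61%). With thinned wells, *scg2b* lost its call through the filter in both comparisons. It still differed by −2.11 in CSN24 and by −1.13 in CSN48-1. For CSN48-2 against Ctrl it went from 0 (34.4%) to 1 with spike-in scaling (39.9%), with every gene of 10 reads or more (51.8%) and without the top well. For both sets against Ctrl it went from 0 (32.6%) to 2 with spike-in scaling (43.9%) and to 1 without CSN48-2 (46%), with every gene of 10 reads or more (50.1%) and without the top well. For the 48-h against the 24-h wells it went from 1 (30.3%) to 2 without CSN48-1 (32%), 0 without CSN48-2 (45.7%) and 2 with all kept wells (31.5%). With thinned wells this count stayed at 1 (8.16%), but the row was *cpe* in place of *scg2b*. Between the 48-h sets it went from 1 (39.7%) to 2 with spike-in scaling (44.6%) and with a 10% filter (58.3%), to 3 with every gene of 10 reads or more (57.6%), and to 0 with thinned wells (19%) and without the top well. Member rows with a read in 25% of the ins-high wells numbered 5 at 50000 counts and 3 at 2000 counts, as fewer counts were drawn. The cause of the other differences was not tested. *pcsk1*, *pcsk2* and *scg2b* had reads in few wells, and low depth and low expression cannot be told apart there. With 1 sample per group, on separate plates, no difference between groups has a replicate check.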

Other observations

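The 3 wells labelled RNA, 1 per plate, have no group in the labels. They held 60608, 45492 and 48071 counts on genes with 8765, 7445 and 7331 detected genes. *scg3* had 7, 10 and 11 reads in them, *cpe* 3, 4 and 0 reads and *scgn* 2, 0 and 0 reads, and *ins* was at 3250, 5320 and 3911 CPM. The NC well held 5 *scg3* reads, 2 reads on the *scg5* row on chromosome 20 and 1 *cpe* read.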
